A study of Sus scrofa with 8 samples.

Results

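Levels of MX1, RSAD2, USP18 and IFITM1, 4 genes switched on by interferon, were read in the whole blood of 8 miniature pigs. They are 4 of the 2074 genes that could be named on the array, with 6 of its 43603 probes. Probes were taken by gene name or probe description, which found 3 probes for MX1 and IFITM1. The other 3 carry the older names UBP and IRG6 and were assigned to USP18 and RSAD2 through their RefSeq accessions. The genes were chosen from earlier results of these same arrays, with their levels, their co-variation between animals and their values in both diets in view. Their levels, co-variation and diet differences are therefore given as descriptions.

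The animals were female clawn miniature pigs, labelled as conventional miniature pigs and aged 8 to 9 months. Of these, 4 were fed shochu distilled water (SDW), named for shochu, a Japanese spirit, mixed with standard dry feed and water in equal parts by weight. The 4 control pigs ate the standard dry feed. The labels disagree on when blood was drawn: 12 weeks into feeding by the design text, but 14, 15, 16 or 17 weeks by the descriptions of replicates 1, 2, 3 and 4. No genetic change or other agent is given for any animal, and each animal gave 1 array, so the number of arrays limits the precision.

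Type I interferons are secreted proteins that cells release on sensing a virus. They bind the receptor formed by IFNAR1 and IFNAR2, and the kinases JAK1 and TYK2 then activate factors such as STAT2, which joins IRF9 to switch on a large set of genes. MX1 encodes a dynamin-like GTPase that blocks influenza and other viruses inside the cell. RSAD2 encodes viperin, a radical S-adenosylmethionine enzyme that interferes with the replication of many viruses. IFITM1 encodes a small membrane protein that hinders the entry of enveloped viruses. USP18 removes the ubiquitin-like protein ISG15 from its targets and damps signalling at the interferon receptor. In blood, genes of this set are often read together as an interferon signature.

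The sequence of a probe sets which part of a transcript its level reports, so stretches of the member probes are shown 5′ to 3′, as deposited with the arrays. Each probe has 60 bases. The MX1 probes begin 15 bases apart in their accession and share 45 bases, and both span the letters AATAAA, the usual polyadenylation signal, which is set in capitals. These letters stood on the printed strand of 12.1% of all probes. The last 30 bases of the upstream MX1 probe recur in the downstream one from its base 16, so the probes do not measure MX1 independently. The USP18 probes begin 1105 bases apart and are printed to show that they lie in different parts of the transcript; the one beginning at base 391 is given whole.
MX1, upstream probe, last 30 bases: gaagcctatttcttttatttgtAATAAAct
MX1, downstream probe, last 30 bases: tatttgtAATAAActtggttctaccagcaa
RSAD2 probe, last 30 bases: ataaaacaaaacactgcattcgagaaaaaa
IFITM1 probe, last 30 bases: ttctttaattatgagtaatgtttggggaaa
USP18 probe from base 1496, last 30 bases: atttcacttctgtttgtaatttgaaaaatt
USP18 probe from base 391, all 60 bases: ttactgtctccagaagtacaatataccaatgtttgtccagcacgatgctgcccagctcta

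Between 38.0% and 43.6% of probes were well above background on the arrays of SDW animals and between 35.2% and 42.3% on those of controls. The arrays lay on 3 slides that each held both diets: SDW 2, SDW 3 and control 3 on slide 1, SDW 1, control 2 and control 4 on slide 2, and SDW 4 and control 1 on slide 3, which was scanned on another day. Markers of whole blood were well above background on all 8 arrays, including the T cell genes CD3D and CD3E, the monocyte gene CD14, the neutrophil genes LTF and MMP9 and the platelet gene PPBP. Of 6 listed markers of plasmacytoid dendritic cells, which are strong producers of type I interferon, 1 had a named probe and none passed the filter on dim probes; no listed erythroid gene had a named probe. Replicate numbers follow the scanner files; in the authors' value table, 7 of 8 columns hold the values of a differently numbered animal on that diet, so which numbered animal an array came from is not settled, whereas its diet is the same in both.

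The animals that stood out were 1 pig of each diet. MX1, RSAD2 and USP18 were high in SDW 2 and in control 1 and lower in the 6 other pigs. A level here is the log2 of the spot signal minus the log2 of the 75th percentile of the signals on the same array. By its upstream probe, MX1 stood at 7.32, 9.10, 7.69 and 7.37 in SDW animals 1 to 4, against 10.25, 7.01, 7.79 and 6.46 in controls 1 to 4. The highest and the lowest of the 8 animals, control 1 and control 4, were 13.8-fold apart, and both were on the control diet. In whole blood, a larger number of cells of a type and more RNA per cell cannot be told apart. The downstream MX1 probe gave 6.80, 8.61, 7.18 and 6.75 in SDW animals and 9.74, 6.52, 7.29 and 6.04 in controls, and so ordered SDW 2 and control 1 in the same way.

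RSAD2 stood at 2.27, 5.79, 3.79 and 1.63 in SDW animals 1 to 4, against 5.40, 2.46, 3.62 and 2.75 in controls 1 to 4. The SDW animals held both the highest and the lowest level of this gene, 17.8-fold apart. SDW 3 and control 3 came next after the high pair, 1.61 below control 1 or further, and both lie on slide 1 with SDW 2.

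USP18 stood at 3.54, 5.60, 3.83 and 3.45 in SDW animals 1 to 4, against 6.54, 3.49, 3.97 and 3.69 in controls 1 to 4, by the probe from base 1496. Apart from SDW 2 and control 1, the animals lay within 0.52 of each other on the log2 scale, whereas the third animal in order was 1.64 below SDW 2. The highest and lowest animals, control 1 and SDW 4, were 8.54-fold apart, and they shared a slide. The USP18 probe from base 391 was well above background in control 1 alone, where it stood at 0.22, and in none of the 4 SDW animals. With 1 of 8 arrays measured, it gives no diet difference and does not show whether SDW 2 was high there too.

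IFITM1 differed from the others in that only control 1 stood apart. It stood at 9.69, 9.74, 9.33 and 9.85 in SDW animals 1 to 4, against 10.77, 9.38, 9.48 and 9.28 in controls 1 to 4. SDW 2 lay within the range of the other SDW animals for this gene, below SDW 4. The whole range over the 8 animals was 2.81-fold.

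**Figure D1:**
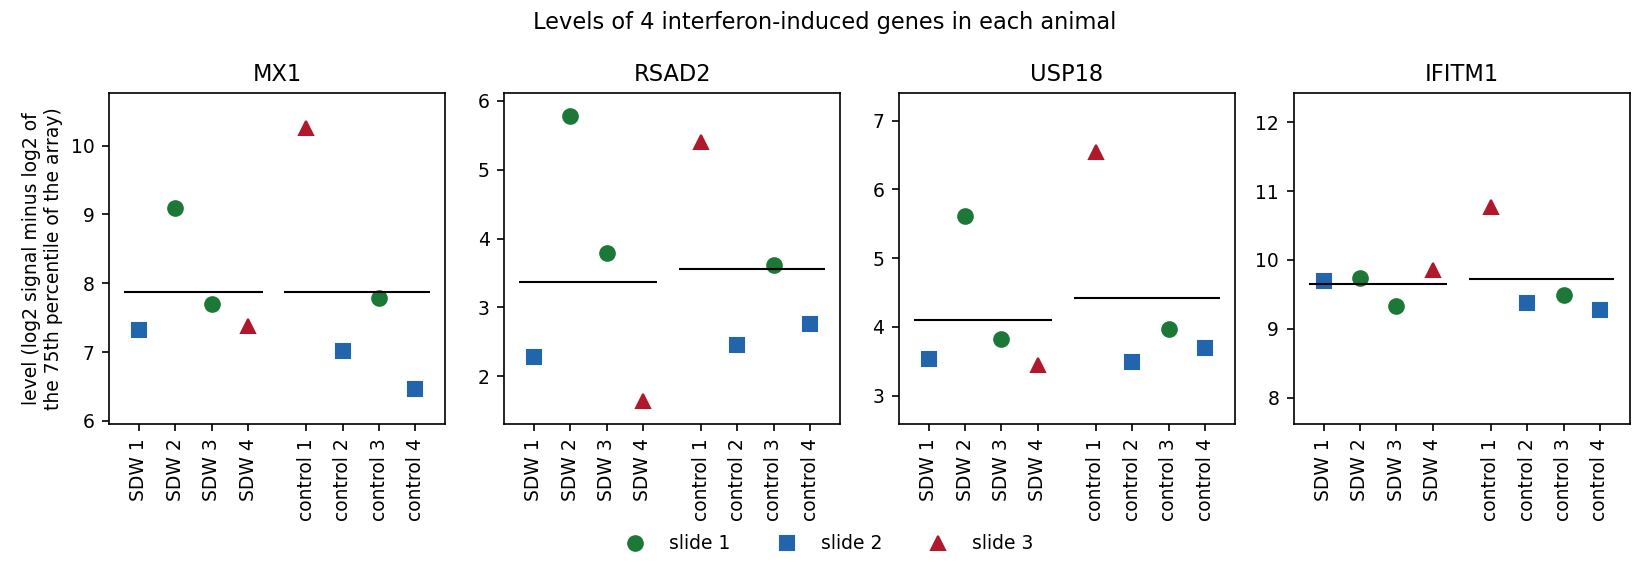
Level of each gene in each animal (vertical axis, log2 signal minus log2 of the 75th percentile of the array; each panel spans the same number of log2 units), with SDW animals left of controls, the marker showing the slide and the line the mean of each diet. SDW 2 and control 1 are highest for MX1 (9.10 and 10.25), RSAD2 (5.79 and 5.40) and USP18 (5.60 and 6.54), whereas for IFITM1 only control 1 (10.77) stands apart.

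The spread of these genes between animals can be set against that of the 17353 probes that were well above background on at least 4 arrays, whose median standard deviation over the 8 animals was 0.42. It was 1.49 for RSAD2, 1.23 for MX1, 1.16 for USP18 and 0.48 for IFITM1. A larger spread was found for 1.21% of the probes in the case of RSAD2, for 2.74% for MX1, for 3.50% for USP18 and for 39.8% for IFITM1. IFITM1 thus varied about as much as a middling probe. SDW 2 and control 1 were the highest pair of animals for 3.17% of the probes.

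MX1, RSAD2 and USP18 moved together over the animals, and for most pairs of genes the correlation was much weaker without SDW 2 and control 1. Over the 8 animals Pearson's r was 0.95 for MX1 with USP18 (Spearman's rho 0.79), 0.90 for RSAD2 with USP18 (rho 0.93) and 0.85 for MX1 with RSAD2 (rho 0.71). IFITM1 gave r = 0.84 with MX1 (rho 0.67), 0.79 with USP18 (rho 0.24) and 0.47 with RSAD2 (rho 0.10). No p is given, since the genes were proposed with this co-variation known. The animals farthest from the median of the first gene named were then left out. By MX1 and by RSAD2 these were SDW 2 and control 1. Without them r fell to 0.45 for MX1 with USP18, to 0.41 for MX1 with RSAD2 and to 0.32 for MX1 with IFITM1. It turned to -0.69 for RSAD2 with IFITM1. Those 4 relations rest on that pair of animals. For IFITM1 with USP18 the animals farthest from the median of IFITM1 were control 1 and control 4, and r was 0.23 without them. For RSAD2 with USP18 r was 0.93 over the 6 pigs other than SDW 2 and control 1.

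Within slides, SDW 2 on slide 1 and control 1 on slide 3 were again the high animals. With the mean of each slide subtracted, r was 0.95 for MX1 with USP18, 0.99 for RSAD2 with USP18 and 0.93 for MX1 with RSAD2, and with slide 3 left out it was 0.89, 0.96 and 0.91 over 6 animals. Both SDW 2 and control 1 enter the first of these values and SDW 2 the second. Slide 3 holds only control 1 and SDW 4, so subtracting its mean sets them equally far above and below that mean. That step by itself can raise r, so the first values do not test the relations within slides. Within slide 3, SDW 4 lay below control 1 by 2.88 for MX1, 3.77 for RSAD2, 3.09 for USP18 and 0.91 for IFITM1. Within slide 1, SDW 2 exceeded SDW 3, an animal on the same diet, by 1.41 for MX1, 1.99 for RSAD2, 1.77 for USP18 and 0.41 for IFITM1. The animals of slide 2, which holds neither of them, lay within 0.86 of each other for MX1. There the order of RSAD2 was the reverse of that of MX1: SDW 1, control 2 and control 4 stood at 7.32, 7.01 and 6.46 for MX1 and at 2.27, 2.46 and 2.75 for RSAD2. USP18 stood at 3.54, 3.49 and 3.69 in the same animals, highest where MX1 was lowest.

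**Figure D2:**
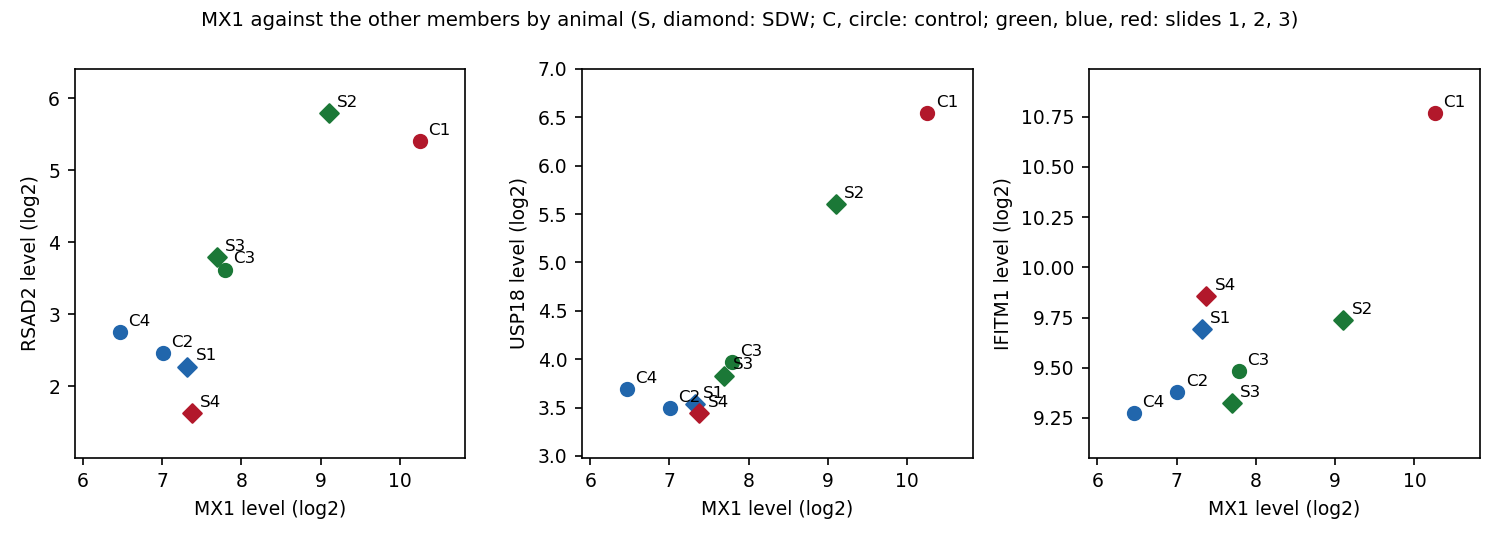
Level of MX1 (horizontal axis, log2) against RSAD2, USP18 and IFITM1 (vertical axes, log2), each point being 1 animal with its diet and replicate (S for SDW, C for control) and its slide by colour. SDW 2 and control 1 lie at the upper right for RSAD2 and USP18; without them r with MX1 falls to 0.41 and 0.45.

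The comparison of the diets asked how SDW feeding relates to blood transcript levels. For these genes the diet means were close relative to the spread between animals, and the animals of both diets overlapped for every member probe that passed the filter. MX1 averaged 7.87 ± 0.84 in SDW animals and 7.88 ± 1.67 in controls (SD, n = 4 each), and the diets differed by -0.01 log2 units (standard error 0.75). RSAD2 averaged 3.37 ± 1.85 in SDW animals and 3.56 ± 1.32 in controls (SD, n = 4 each), and the diets differed by -0.19 log2 units (standard error 0.91). USP18 averaged 4.10 ± 1.01 in SDW animals and 4.42 ± 1.43 in controls (SD, n = 4 each), and the diets differed by -0.32 log2 units (standard error 0.71). IFITM1 averaged 9.65 ± 0.23 in SDW animals and 9.73 ± 0.70 in controls (SD, n = 4 each), and the diets differed by -0.07 log2 units (standard error 0.34). With standard errors of this size, differences of more than 1 log2 unit in either direction remain possible for MX1, RSAD2 and USP18.

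Across all probes, limma called 0 of 17353 at an adjusted p under 0.05, which is 0.00%, and 251 had an unadjusted p under 0.05. None of the 5 member probes that passed the filter was among either. Every SDW animal lay above every control for 0.599% of the probes and below for 0.386%. Since the members were proposed with these values known, nothing is read from their counts.

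The sign of the diet difference depended on single animals. For MX1 it was -0.42 without SDW 2 and 0.78 without control 1. For RSAD2 it was -0.99 without SDW 2 and 0.43 without control 1, for USP18 -0.82 and 0.39, and for IFITM1 -0.10 and 0.27. Within slide 1 the SDW minus control difference of MX1 was 0.61, within slide 2 it was 0.58, and within slide 3, which holds 1 animal of each diet, it was -2.88. RSAD2 gave 1.17, -0.33 and -3.77 on slides 1, 2 and 3, and USP18 gave 0.75, -0.05 and -3.09. IFITM1 gave 0.05, 0.36 and -0.91. SDW 2 enters the slide 1 values and control 1 the slide 3 values.

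**Figure D3:**
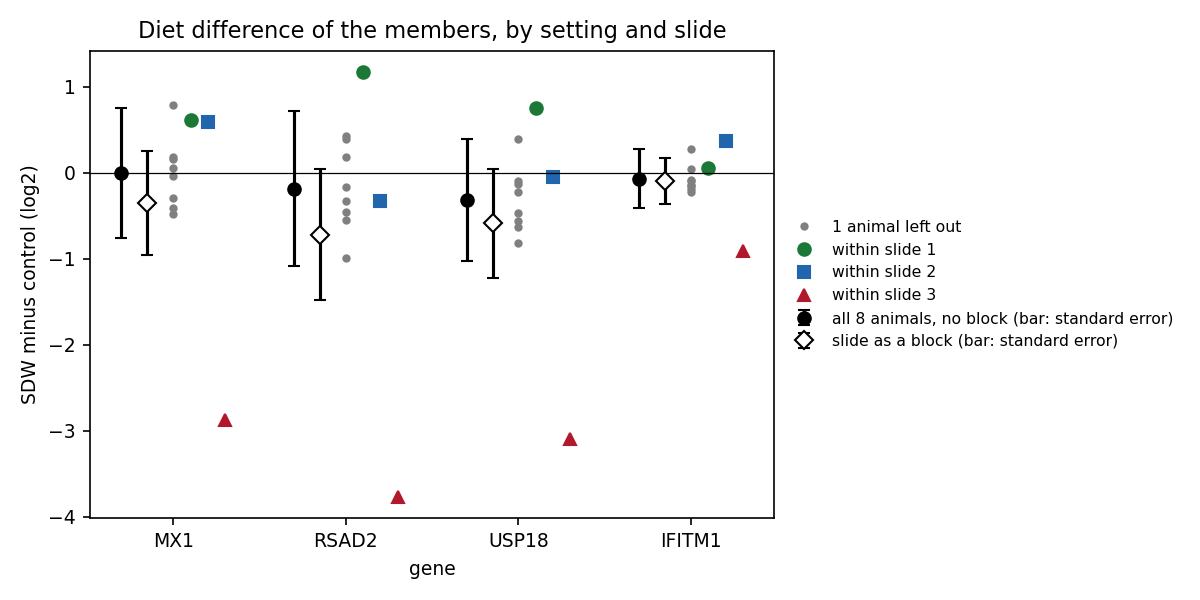
SDW minus control difference (vertical axis, log2) of each gene over all 8 animals without and with slide as a block (bars are standard errors), with each animal left out in turn (grey) and within each slide (coloured). The values within slide 3 lie lowest for every gene, at -2.88 for MX1, -3.77 for RSAD2, -3.09 for USP18 and -0.91 for IFITM1.

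Other genes of the pathway were read from lists arranged by role. Of the listed interferons, 4 had a named probe: the type I interferons IFNA1 and IFNB1, IFNE, and the short type I interferon that pigs make, IFN-DELTA-1. None of them was well above background on any array, in SDW 2 and control 1 included, so no level can be given for the ligands.

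Among other genes that interferon switches on, 9 were measured beside the members. None passed the threshold for the diets (limma, 0 of 9; 0 at an unadjusted p under 0.05), 6 had a lower mean with SDW and 3 a higher one, and their median difference was -0.13, against 0.02 over all probes. These signs are those of the brightest probe of each gene. The brightest MX2 probe gave 0.24 and its other probe that passed the filter -0.14. LGALS9 gave -0.06 by its brightest probe and 0.01 and -0.70 by the others. SDW 2 and control 1 were the highest pair for 5 of the 9, against 3.17% of all probes that passed the filter. The lists were chosen with earlier results of these data known, so this count is a description. MX2, the relative of MX1 that lies next to it in the genome, stood at 4.20, 5.69, 4.72 and 3.86 in SDW animals 1 to 4, against 6.42, 4.00, 4.23 and 2.87 in controls 1 to 4. CXCL10, a chemokine that draws T cells to inflamed sites, stood at 0.39, 4.27, 0.90 and 0.59 in SDW animals, against 4.04, 1.05, 1.41 and 0.43 in controls. LGALS9, which encodes galectin-9, was also highest in SDW 2 (8.08) and control 1 (8.25), with SDW 3 (7.77) and control 3 (7.60) close behind.

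OASL and EIF2AK2 completed the 5. OASL, a relative of the oligoadenylate synthetases, reached 4.54 in SDW 2 and 3.48 in control 1 and at most 1.76 elsewhere. EIF2AK2, the kinase PKR that halts translation on binding double-stranded RNA, reached 4.23 in SDW 2 and 4.08 in control 1, with control 4 next at 3.55.

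Other genes of the set were not high in SDW 2 and control 1 alike. OAS2, an oligoadenylate synthetase that responds to double-stranded RNA, stood at 7.53, 7.30, 7.66 and 5.86 in SDW animals 1 to 4, against 10.46, 7.29, 7.78 and 7.32 in controls 1 to 4, so that only control 1 stood apart. OAS1, of the same enzyme family, was at 6.69 in SDW 2 by its brightest probe, the lowest of the SDW animals, and at 7.37 in control 1, the highest of the 8; its other probe that passed the filter gave a diet difference of -3.55, where the brightest gave 0.14. TNFSF10, the death ligand TRAIL, was highest in SDW 2 (0.92) but stood at -1.60 in control 1, lower than in the other controls, with 3 of 4 arrays of each diet well above background.

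Probes that carry no gene symbol but are described after proteins of the interferon system were also read. They were added once their values were known. Of these 7 probes, 5 passed the filter. SDW 2 and control 1 were the highest pair for 4 of them, against 3.17% of all probes that passed the filter. As the probes were chosen with their values known, nothing is read from this count. A probe described after sheep interferon stimulated gene 17, a homologue of ISG15, the protein that USP18 removes, stood at 8.21, 9.86, 8.90 and 8.65 in SDW animals 1 to 4, against 11.43, 8.16, 9.01 and 8.14 in controls 1 to 4. A probe described as the pig exonuclease ISG20 stood at 4.52, 7.16, 5.42 and 4.76 in SDW animals, against 8.06, 4.17, 5.84 and 4.30 in controls. A probe described as a fragment of pig Mx protein, of the same cluster as an MX2 probe, stood at 4.94 in SDW 2 and 4.99 in control 1 and at most 3.54 elsewhere. A probe of the ISG20 RefSeq accession was not well above background on any array, and neither was a probe described after human IFIT1. A probe described after a bovine membrane protein of the IFITM1 kind (Leu-13/9-27) stood at 3.95 in SDW 2 and 4.78 in control 1 and at most 3.66 elsewhere, unlike the IFITM1 probe. IFITM1 lies beside IFITM3 in the genome and the family is closely related, so which member each of these probes reads was not tested.

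The probe described after the bovine beta chain of the interferon alpha/beta receptor was the one of these whose diets did not overlap. It stood at -1.74, -1.50, -1.53 and -1.56 in SDW animals 1 to 4, against -1.16, -1.20, -0.98 and -0.88 in controls 1 to 4, dim but well above background on all arrays. The difference was -0.53 log2 units with an unadjusted p of 0.0258 and an adjusted p of 0.99987 over all probes (limma), so it failed the correction. Every SDW animal lay below every control for 0.386% of all probes.

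Of 10 measured receptor and signalling genes, 0 passed the threshold (limma; 0 at an unadjusted p under 0.05), 7 had a lower mean with SDW and 3 a higher one, and the median difference was -0.09. STAT2 and IRF9, factors that carry the signal of type I interferon, had SDW 2 and control 1 as their highest pair, over a smaller range than MX1. STAT2 was highest in SDW 2 (5.52) and control 1 (5.61), close to control 3 (5.47), and IRF9 in SDW 2 (2.92) and control 1 (3.42). IRF1 was highest in SDW 1 (4.50) with control 1 next (4.45), and SDW 2 stood at 4.23. STAT3 was highest in SDW 4 (-0.55) with control 1 next (-0.58), and SDW 2 stood at -1.89. The receptor chains did not follow: IFNAR1 was lowest in control 1 (0.45), and IFNGR2, a chain of the interferon gamma receptor, was highest in SDW 4 (5.72). The diet difference of IFNAR1 was -0.16 by its brightest probe and 0.08 by its other probe that passed the filter. The kinase JAK1 stood at 7.80 in SDW 2 and 6.96 in control 1, which was the lowest of the 8 animals.

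Of 11 measured genes of the sensors that lead to interferon, 0 passed the threshold (limma; 0 at an unadjusted p under 0.05), 7 had a lower mean with SDW and 4 a higher one, and the median difference was -0.28. The RNA sensors IFIH1 and DDX58, which interferon itself induces, were highest in SDW 2 (1.71 and -0.22) and control 1 (1.62 and -0.23), though DDX58 was well above background on 5 of the 8 arrays only. IRF7, the factor that amplifies type I interferon production, stood at 6.67, 7.92, 6.87 and 6.99 in SDW animals 1 to 4, against 9.08, 6.49, 7.13 and 6.37 in controls 1 to 4. MAVS, the adaptor of these RNA sensors, was also highest in SDW 2 (1.87) and control 1 (1.95), with SDW 4 close at 1.84. Its diet difference was 0.18 by the brightest probe and -0.27 and -0.03 by the others that passed the filter. Other genes of this list did not follow: the adaptor MYD88 was at 8.40 in SDW 2 and 7.34 in control 1, and highest in control 3 (9.77), and the kinase IRAK4 was at 2.67 in SDW 2 and 1.62 in control 1. The Toll-like receptor TLR7 was highest in SDW 2 (3.59) but lowest among the controls in control 1. TBK1 and IRF3 relay the signal of the sensors. TBK1 was at -1.31 in SDW 2 and -1.92 in control 1, and highest in control 4 (-0.89). IRF3 was at -3.45 in SDW 2 and highest in the animals of slide 3, control 1 (1.08) and SDW 4 (-0.08), with control 3 next (-1.93). Both genes were dim, and IRF3 was well above background on 4 of the 8 arrays.

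**Figure D4:**
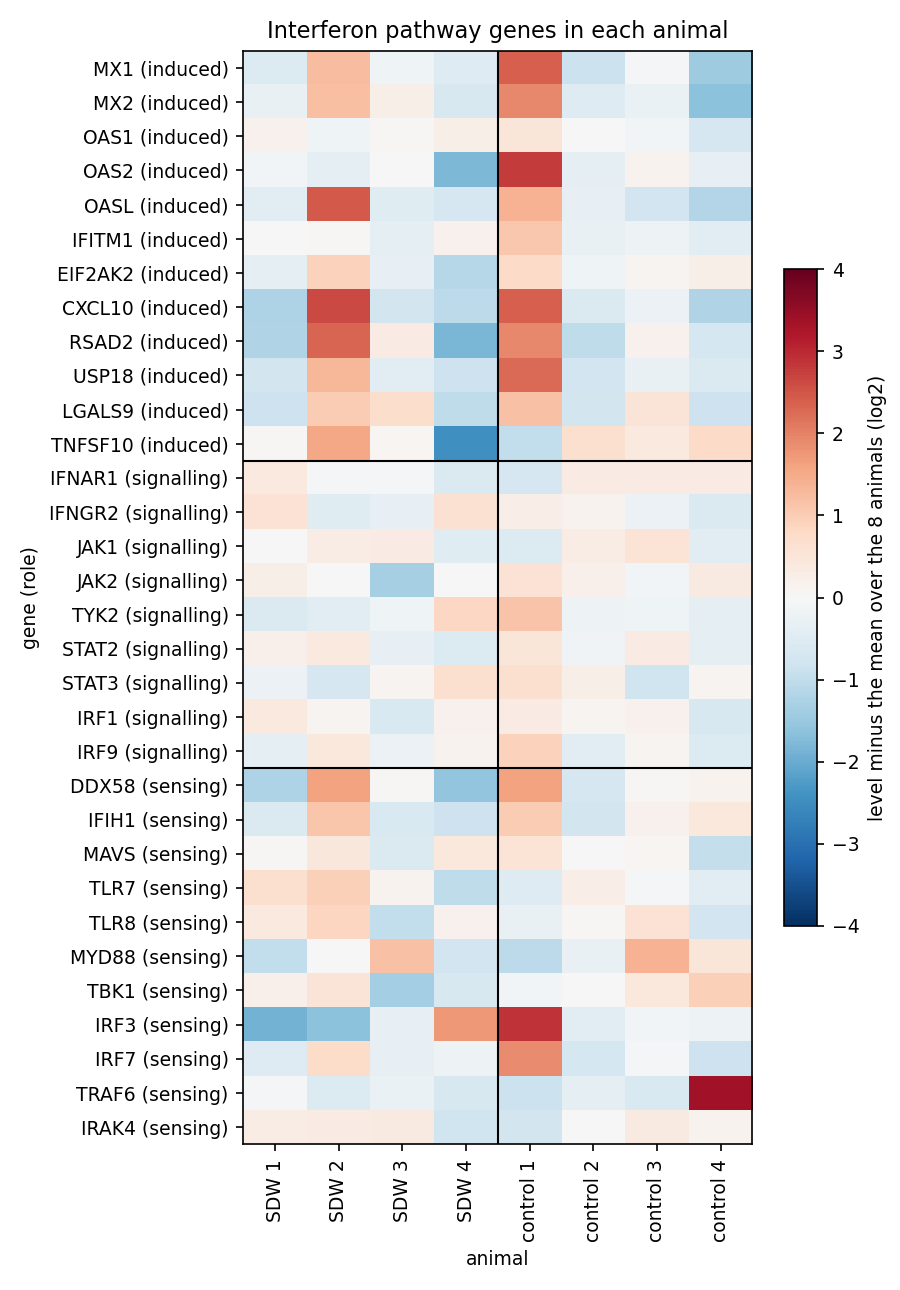
Level of the measured pathway genes reported here in each animal relative to its mean over the 8 animals (colour, log2), with SDW animals left of controls and the genes grouped as interferon-induced, signalling and sensing. SDW 2 and control 1 are the highest pair for MX2 (5.69 and 6.42 before centring), CXCL10 (4.27 and 4.04) and IRF7 (7.92 and 9.08), but not for MYD88 (8.40 and 7.34).

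The genes most like the members in pattern were sought among 1149 other named genes, by Pearson's r over the 8 animals with the mean of the 4 genes, each centred on its own mean. Among the 10 closest were IRF7 (0.96), CXCL10 (0.96), LOC733579 (0.96), MX2 (0.94), TIMP1 (0.91), IRF9 (0.89), SCG5 (0.89), Scarb2 (0.88) and BID (0.88). Of these, IRF7, CXCL10, MX2 and IRF9 stand in the interferon lists. LOC733579 is described in the files as tripartite motif protein TRIM5, a restriction factor against retroviruses in primates. TRIM5 is in the list of induced genes, but LOC733579 was not counted there, since listed genes were matched by symbol. LOC733579 stood at 3.38, 4.30, 3.20 and 2.74 in SDW animals 1 to 4, against 4.53, 3.03, 3.22 and 3.13 in controls 1 to 4. TIMP1 encodes an inhibitor of matrix metalloproteinases and BID a protein that promotes cell death. With slide means subtracted, 6 of the 10 were again among the closest, namely IRF7 (0.99), LOC733579 (0.99), BID (0.96), CXCL10 (0.95), Scarb2 (0.95) and SCG5 (0.95), joined by APTX (0.98), GNE (0.96), LOC733637 (0.95) and LGALS9 (0.94). The points share arrays and slides, and r over 8 animals of which a pair stands apart is a description. Subtracting slide means also sets control 1 and SDW 4, the only animals of slide 3, equally far above and below their mean. Of the others, SCG5, Scarb2, APTX, GNE and LOC733637 are in none of the interferon lists. An r of at least 0.9 was reached by 0.522% of the 1149 other named genes and, with slide means subtracted, by 1.74%. Over 17343 probes that passed the filter, the members' own included, the shares were 0.306% and 1.24%.

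Some measures of the arrays had SDW 2 and control 1 as their highest pair. The scanner software marked 23 outlier spots on the array of SDW 2 and 14 on that of control 1, against 3 to 9 on each of the other 6. The median signal was 6.36 for SDW 2 and 5.75 for control 1, with control 4 close to it at 5.70. The part of these in the levels of the 4 genes was not tested. They were not the highest pair for the share of probes above background or for the marker lists measured. SDW 2 had the highest share of probes well above background (43.6%) and control 1 the lowest (35.2%). The mean of the 5 measured neutrophil markers, each relative to its own mean, was lowest in SDW 2 (-0.74) and highest in control 1 (1.11). Among them, NCF1 and TREM1 were highest in the animals of slide 3, control 1 (4.00 and 4.68) and SDW 4 (3.54 and 3.87). LTF, MMP9 and ALOX5AP did not have that pair highest. The part of the slide in these levels was not tested. The mean of 5 monocyte markers was 0.19 in SDW 2 and -0.16 in control 1, that of 6 T cell markers 0.26 and -0.08, that of 2 markers of natural killer and cytotoxic cells 0.36 and -0.20, and that of 4 platelet markers 0.18 and -0.51. The monocyte markers went opposite ways in control 1. There CD14 (4.58) was the highest of the 8 animals, with SDW 4 next (4.48), and FCGR3A (9.04) was close to the highest. LYZ (3.43) was the lowest of the 8 and CCR2 (1.63) close to the lowest. The summed level of the neutrophil markers ranged from 8.69 to 9.51 in SDW animals and from 9.08 to 9.77 in controls, and that of the monocyte markers from 8.48 to 9.18 in SDW animals and from 8.68 to 9.15 in controls. The part of cell composition in the levels of the 4 genes was not tested.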

How the data were processed

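Per the labels' protocols, blood was stabilised in PAXgene tubes, and 0.5 µg of RNA went into Cy3 labelling. The authors deposited scanner output whose intensities are linear; Feature Extraction 10.1.1.1 (per the file headers; the submitters' processing notes name 9.5.3.1) had subtracted background and detrended each array. No source used here says how the value table of intensities that the authors deposited was normalized.

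Control and outlier spots were dropped and repeat spots averaged. Levels are log2 processed signal relative to each array's 75th percentile. Probes well above background on at least 4 of 8 arrays were kept (17353). Diets were compared with limma 3.58.1 in R 4.3.3 (lmFit, eBayes; two-sided) without covariates, with Benjamini-Hochberg adjustment over all kept probes and a threshold of 0.05; the fit was tested on simulated data. P-values measure the spread between these animals. Alternatives varied background correction, scaling, filter, slide block, replicate block and the animals left out. A gene was read from its brightest kept probe; 3170 probes had a symbol, from the files or RefSeq (Sscrofa11.1). No genome was used, so no positions are given.

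Named genes are the members, the 4 brightest genes of each list, listed genes whose diets do not overlap (none of those with a symbol) and the 10 closest in pattern; some are not reported here. OASL, EIF2AK2, TNFSF10, IFNAR1, IRF1, STAT3, IFIH1, DDX58, MAVS, TBK1, IRF3 and the interferons were added once their values were known, as were the probes named from descriptions. The members and lists were chosen with earlier results of these data known. Same-numbered animals of both diets had correlations of deviations from the diet means of -0.17, 0.11, 0.33 and -0.38, so the numbers were not taken as pairs.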

Additional observations from a re-analysis of the deposited data

Results flagged for a closer look

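Within the control diet, control 1 lay far from the other controls for 2 of the member probes, by the gap to its nearest neighbour relative to the range of the 4 animals. For IFITM1 control 1 was at 10.77 and the next control at 9.48, a gap of 0.86 of the range. For the USP18 probe from base 1496 it was at 6.54 and the next control at 3.97, a gap of 0.84 of the range. Both gaps were picked out by Dixon's ratio for 4 values. They were the 2 past its cut-off among 12 groups checked, each being 1 member probe in 1 diet. For the same USP18 probe SDW 2 also lay apart, at 5.60, with the next SDW animal at 3.83 and the lowest at 3.45. That gap was not picked out, but this does not show that SDW 2 and control 1 differ in kind. No share over all probes is given for this ratio. The gaps are descriptions, since the genes were chosen with these levels known.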

How the results depend on the processing

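The number of probes called for the diets was 0 in every setting but 1: with both arrays of slide 3 left out, 1 probe was called, and the cause was not tested. With the replicate number as a block it was 0, as it was with each animal left out in turn (range 0 to 0). No setting moved a member's diet difference by more than 1 standard deviation between animals, but signs changed: over the animals left out in turn, MX1 ranged from -0.48 to 0.78, RSAD2 from -0.99 to 0.43, IFITM1 from -0.22 to 0.27 and USP18 from -0.82 to 0.39. Slide as a fixed block gave -0.35 for MX1, -0.72 for RSAD2 and -0.59 for USP18; leaving out slide 3 gave 0.95, 1.01 and 0.61. Leaving out SDW 2 and control 1 together, chosen after the data were seen, gave 0.37 for MX1, -0.38 for RSAD2, -0.11 for USP18 and 0.24 for IFITM1, with 0 probes called. The replicate block cannot change a diet difference, since each replicate number holds 1 animal of each diet. It gave -0.01 for MX1 and -0.19 for RSAD2, as without a block. Without slide 3 the median difference turned to 0.28 for the other induced genes, 0.08 for the receptor and signalling genes and 0.13 for the sensing genes. Without control 1 these medians were 0.31, 0.10 and -0.12. The 2 animals farthest from the median of the first gene named were also left out. Without them r was 0.32 for MX1 with IFITM1, 0.45 for MX1 with USP18 and -0.69 for RSAD2 with IFITM1. With slide means subtracted r was 0.99 for RSAD2 with USP18. Dim probes, such as the second USP18 probe, give no order between animals near background.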
